A study of Mus musculus with 6 samples.

Results

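The genes of cellular iron uptake, storage, export and iron sensing were followed in murine brown adipocytes treated with 4CBA or with vehicle. The 9 genes were picked by name for their textbook roles, with earlier results of these data known. The list was drawn from 24537 genes with a value, and all 9 were expressed highly enough to be tested. They are Tfrc, Slc11a2 and Steap3 for uptake, Fth1, Ftl1 and Ncoa4 for storage and its turnover, Slc40a1 for export, and Aco1 and Ireb2 for the iron regulatory proteins. RNA was sequenced from 3 libraries of cells given 4CBA (4-chlorobenzoic acid, an inhibitor of the coenzyme Q synthesis enzyme COQ2) at 4 mM and from 3 libraries of cells given vehicle (CTL). Both groups came from the same immortalized line of brown preadipocytes, which was differentiated for 6 days and treated from day 4. The sample labels give a treatment of 48 h, and the methods of the study give a shorter one. The methods also state that independent replicates were pooled when total RNA was made, so the spread behind the p-values is that of libraries and may be technical only. Values are RPKM, a read count divided by exon length and by library depth, and depth was estimated at 9400000 to 12200000 reads per library.

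Iron enters most cells bound to transferrin, which is taken up by the transferrin receptor TFRC. In the endosome the metal is reduced by STEAP3 and moved into the cytosol by SLC11A2 (DMT1). Iron that is not used is stored inside ferritin, a shell of heavy (FTH1) and light (FTL1) chains, and is released when NCOA4 carries ferritin to the lysosome. Ferroportin, encoded by Slc40a1, is the known iron exporter of mammalian cells. The iron regulatory proteins IRP1 (Aco1) and IRP2 (Ireb2) bind hairpins called iron responsive elements (IREs) when iron is scarce. A bound IRE in the 5′ untranslated region (UTR) blocks translation, whereas IREs in the 3′ UTR of Tfrc protect the mRNA from decay. Brown adipocytes have a large demand for iron because their dense mitochondria are rich in heme and iron-sulfur proteins.

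The IREs are printed because the control described above differs between elements in the 5′ UTR and those in the 3′ UTR of Tfrc. Whether this control acts in these cells was not tested. The search was for C, 5 bases, CAGTGN and 5 bases able to pair with the first 5 (G to T pairs allowed), on the sense strand of the counted transcript. Capitals mark the bulged C and the loop. Each line has 30 bases of the GRCm38 (mm10) reference, read 5′ to 3′ from GENCODE vM21 transcripts.
Tfrc 3′ UTR element 1, chr16:32631219-32631248, plus strand: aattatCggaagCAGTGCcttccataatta
Tfrc 3′ UTR element 2, chr16:32631598-32631627, plus strand: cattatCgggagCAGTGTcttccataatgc
Tfrc 3′ UTR element 3, chr16:32631663-32631692, plus strand: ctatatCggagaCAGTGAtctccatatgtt
Tfrc 3′ UTR element 4, chr16:32631710-32631739, plus strand: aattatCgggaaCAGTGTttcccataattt
Fth1 5′ UTR, chr19:9982732-9982761, plus strand: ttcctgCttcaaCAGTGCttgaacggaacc
Ftl1 5′ UTR, chr7:45459778-45459807, minus strand: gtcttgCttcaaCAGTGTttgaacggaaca
Slc40a1 5′ UTR, chr1:45925464-45925493, minus strand: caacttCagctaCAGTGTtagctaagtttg
Both ferritin elements have the same 5 bases on each side of the loop, and the 4 Tfrc matches lie within the 3′ UTR. An element with another loop would be missed by this search, so 4 is a count of matches and may not cover all Tfrc elements. Such a match was found in the 5′ UTR of 14 of the 11714 tested genes with a matched coding transcript (0.12%) and in the 3′ UTR of 77 (0.657%). Tfrc was the 1 gene among them with at least 4 matches in its 3′ UTR. The counted transcripts of Steap3, Slc11a2, Ncoa4, Aco1 and Ireb2 held no match in this search. A longer isoform of Slc11a2, of 4415 bases against 3025 for the counted one, held 1 match in its 3′ UTR in a looser form with 1 unpaired base. Matches are more frequent when this form is also allowed. In the counted transcripts, 212 of the 11714 genes (1.81%) then had a match in the 3′ UTR and 31 (0.265%) in the 5′ UTR.
Slc11a2 longer isoform 3′ UTR, chr15:100395152-100395181, minus strand: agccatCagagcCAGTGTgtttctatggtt
The 2 isoforms share 1708 bases, 56.5% of the counted transcript, so reads of either can fall in the exons behind the Slc11a2 values below, and the values do not separate the isoforms.

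**Figure D1:**
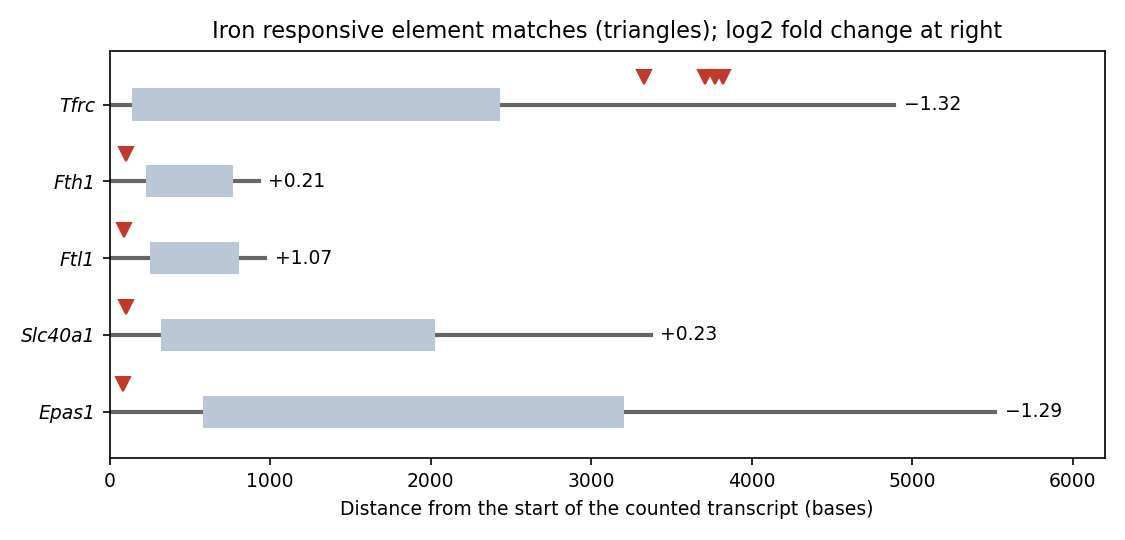
Counted transcripts of 5 genes with IRE matches, drawn to scale in bases from the transcript start, with coding regions as boxes, matches as triangles and the log2 fold change of 4CBA over CTL at the right. The 4 Tfrc matches lie after the coding region, the others lie before it, and the 5′ UTR genes range from −1.29 (Epas1) to 1.07 (Ftl1).

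All 3 uptake genes were lower in 4CBA cells than in CTL cells. Tfrc, which lies on chr16:32608920-32632794 of the plus strand, had 35.7, 35.1 and 34.4 RPKM in the 4CBA libraries, against 89.7, 86.1 and 91.9 RPKM in the CTL libraries. The groups were far apart, and Tfrc was 2.55-fold lower by mean RPKM. On the log2(RPKM + 1) scale, on which all fold changes below are given and which understates the change of low genes, the difference was −1.32 (SE 0.0505, adjusted p = 7.18e-10 from limma). Of the 12659 tested genes, 419 had a more negative fold change. In bulk RNA, fewer cells of a type and less RNA per cell cannot be told apart, and this holds for each result here.

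Slc11a2 (chr15:100387898-100425072, minus strand), the carrier of ferrous iron out of the endosome, fell most among the 9 genes. It had 16.2, 16.5 and 16.6 RPKM in the 4CBA libraries, against 52.8, 50.7 and 50.8 RPKM in the CTL libraries, which is 3.12-fold lower. The log2 fold change was −1.59 (SE 0.0514, adjusted p = 2.07e-10 from limma), and 268 tested genes were more negative. Its counted exons overlap a gene of the opposite strand, Gm5475, by 94 bases, and the strand setting of the counting is not known here.

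Steap3 (chr1:120190757-120272705, minus strand), the endosomal ferrireductase, had 13.2, 12.5 and 13.8 RPKM in the 4CBA libraries and 25.4, 26.8 and 28.3 RPKM in the CTL libraries. The groups did not overlap, with a log2 fold change of −0.98 (SE 0.0629, adjusted p = 6.61e-08 from limma). Of the 3 uptake genes, the reductase thus had the smallest fold change in size and the carrier that acts after it the largest.

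The ferritin chains were higher in 4CBA cells, by very different amounts. Fth1 (chr19:9980598-9985098, plus strand), the chain with ferroxidase activity, had 2011, 1976 and 1951 RPKM in the 4CBA libraries, against 1731, 1678 and 1718 RPKM in the CTL libraries. It was among the most abundant mRNAs of these cells, at rank 3, 4 and 4 of all genes in the 4CBA libraries and rank 8 in each CTL library. Its fold change was small, 0.21 on the log2 scale (SE 0.0462, 95% interval 0.11 to 0.31, adjusted p = 0.00153 from limma). After scaling each library to an equal median, Fth1 had a fold change of 0.10 and an adjusted p of 0.0571, and the call was lost.

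Ftl1 (chr7:45457944-45459884, minus strand), the chain that aids formation of the iron core, had 345, 338 and 309 RPKM in the 4CBA libraries, against 154, 164 and 154 RPKM in the CTL libraries. The lowest 4CBA library was well above the highest CTL library, and Ftl1 was 2.10-fold higher, at rank 69, 72 and 76 of all genes in the 4CBA libraries and rank 323, 290 and 316 in the CTL libraries. The log2 fold change was 1.07 (SE 0.0573, adjusted p = 1.35e-08 from limma), with 621 tested genes above it. Of the 50-base windows of the counted Ftl1 transcript, 78.9% occur unchanged in transcripts of other genes, mostly in Ftl1-ps1. Its reads may thus be shared with these copies, and both the level and the change of Ftl1 are uncertain. Its exons also overlap the opposite-strand gene Gm10252 and the same-strand gene Gm22133, by at most 355 bases. The same share was 6.59% for Fth1, all in the processed pseudogene Gm6977.

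Ncoa4 (chr14:32159865-32179855, plus strand), the receptor that delivers ferritin for breakdown, had 1.01, 1.21 and 0.724 RPKM in the 4CBA libraries and 0.741, 0.972 and 0.884 RPKM in the CTL libraries. The groups overlapped, and the fold change of 0.08 had a 95% interval of −0.17 to 0.34 (adjusted p = 0.552 from limma). These values rest on an estimated 26 to 44 reads per 4CBA library and 28 to 39 per CTL library. In addition, 52.5% of its 50-base windows also occur in the processed pseudogene Gm6768, so both the level and the change of Ncoa4 are poorly measured here.

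Slc40a1 (chr1:45908068-45926523, minus strand), the exporter, was also low. It had 1.74, 2.59 and 3.11 RPKM in the 4CBA libraries and 1.85, 1.83 and 2.13 RPKM in the CTL libraries, from 67 to 113 estimated reads per library. The first 4CBA library lay below all CTL libraries and the other two lay above them. The log2 fold change was 0.23 (95% interval −0.07 to 0.53, adjusted p = 0.161 from limma). Without 4CBA replicate 1 it was 0.39 with an adjusted p of 0.0100, and over the other alternatives the adjusted p reached 0.535, so 1 library decides the call.

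**Figure D2:**
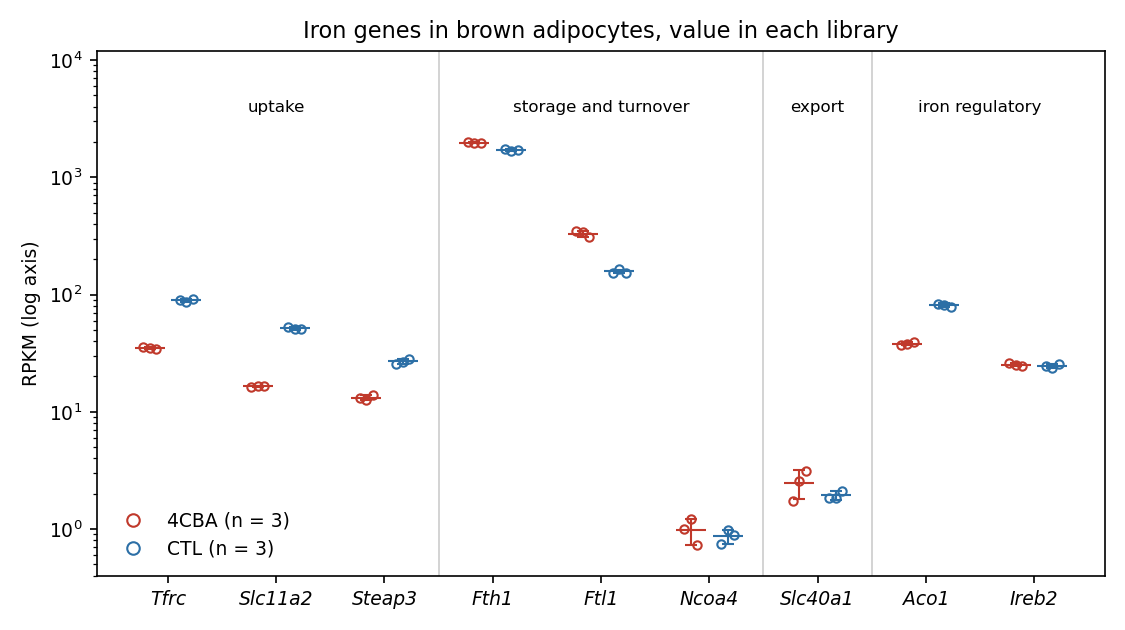
RPKM of the 9 iron genes in each library on a log axis, with 4CBA (red, left) and CTL (blue, right). Circles are libraries, long bars are means and error bars are the SD (n = 3 each). Uptake genes and Aco1 are lower in 4CBA, Ftl1 and more slightly Fth1 are higher, and Ncoa4, Slc40a1 and Ireb2 overlap between groups.

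The iron regulatory proteins differed from each other. Aco1 (chr4:40143081-40198338, plus strand) encodes a protein that is the cytosolic aconitase when it holds an iron-sulfur cluster and IRP1 when it does not. It had 37.2, 37.5 and 39.2 RPKM in the 4CBA libraries, against 83.8, 80.9 and 77.5 RPKM in the CTL libraries. Aco1 was 2.13-fold lower, with a log2 fold change of −1.07 (SE 0.0525, adjusted p = 6.26e-09 from limma).

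Ireb2 (chr9:54863789-54912530, plus strand), whose protein has no aconitase activity and is broken down when iron is plentiful, had 26.0, 25.0 and 24.5 RPKM in the 4CBA libraries and 24.8, 23.4 and 25.4 RPKM in the CTL libraries. The groups overlapped, and the fold change of 0.04 had a 95% interval of −0.09 to 0.16 (adjusted p = 0.588 from limma). Aco1 mRNA was 1.43, 1.50 and 1.60 times as abundant as Ireb2 mRNA in the 4CBA libraries, against 3.38, 3.46 and 3.05 times in the CTL libraries. These ratios did not overlap, with an exact two-sided permutation p of 0.1, the smallest that 3 against 3 libraries allow.

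Ratios within a library do not depend on its scaling. Fth1 to Ftl1 was 5.83, 5.84 and 6.32 in the 4CBA libraries and 11.2, 10.2 and 11.2 in the CTL libraries, with means of 6.00 ± 0.281 and 10.9 ± 0.565 (SD, n = 3 each). The ferritin mRNA pool thus held a larger light-chain share in 4CBA cells, subject to the copies of Ftl1 named above. The sum of both chains was 2310.1 ± 48.7 RPKM in 4CBA cells and 1866 ± 22.0 RPKM in CTL cells (SD, n = 3 each). Unlike the ratios, this sum depends on the scaling. Most of it is Fth1, whose call was lost after scaling to an equal median. Tfrc to Fth1, the receptor against the storage chain, was 0.0177 ± 5.91e-05 in 4CBA cells and 0.0522 ± 0.00116 in CTL cells (SD, n = 3 each). Both ratios differed without overlap, again at the smallest exact permutation p of 0.1.

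The order of the levels changed as well. In 4CBA cells Fth1 and Ftl1 were followed by Aco1, Tfrc, Ireb2, Slc11a2, Steap3, Slc40a1 and Ncoa4, and no neighbours in this order overlapped in their RPKM ranges. In CTL cells the order after ferritin was Tfrc, Aco1, Slc11a2, Steap3, Ireb2, Slc40a1 and Ncoa4. Here the ranges of Steap3 (25.4 to 28.3 RPKM) and Ireb2 (23.4 to 25.4 RPKM) met, and all other neighbours were apart. Ireb2 was thus above Slc11a2 in 4CBA cells and below it in CTL cells. The places of Ftl1 and Ncoa4 in both orders are subject to the copies named above, which the ranges over libraries do not reflect.

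Of the 9 genes, 6 passed an adjusted p under 0.05, 4 lower and 2 higher, and these 6 also had groups that did not overlap. Over all 12659 tested genes 68.4% passed (30.0% lower, 38.4% higher) and 72.7% had groups that did not overlap, so the number of calls among the iron genes is near that of genes in general. A change of at least 1 on the log2 scale was less frequent. It was passed by Tfrc, Slc11a2 and Aco1 among genes that fell, against 6.00% of all tested genes, and by Ftl1 among genes that rose, against 5.47%. Because the 9 genes were chosen with earlier results of these data known, this comparison is descriptive and not a test of the list. The median fold change was 0.04 for the iron genes and 0.06 for all tested genes. The median log2(RPKM + 1) of the tested genes was 3.55 in 4CBA libraries and 3.45 in CTL libraries, a shift of 0.11. Relative to that shift the fold changes were −1.43 for Tfrc, −1.69 for Slc11a2, −1.08 for Steap3, −1.18 for Aco1, 0.96 for Ftl1 and 0.10 for Fth1. Of these 6 calls, all except that of Fth1 held on this scale. Over all genes, 45.0% of calls were then higher, against 56.1% before.

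**Figure D3:**
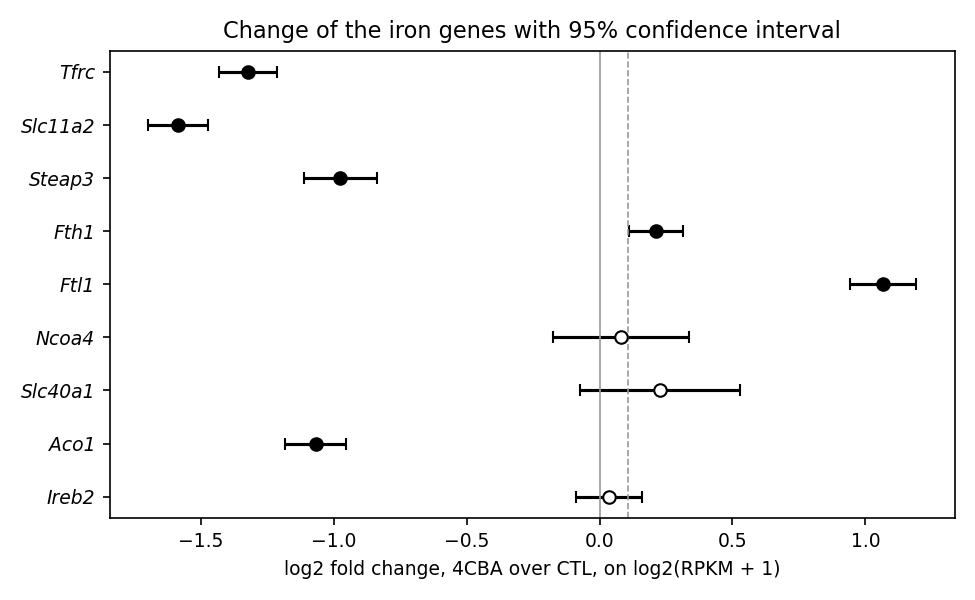
Log2 fold change of 4CBA over CTL for the 9 genes, with 95% confidence intervals from limma, filled circles for an adjusted p under 0.05 and open circles otherwise. The solid line marks 0 and the dashed line the shift of 0.11 in the median of all tested genes. Slc11a2 lies farthest to the left at −1.59 and Ftl1 farthest to the right at 1.07.

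Members with IREs moved in both directions. Tfrc, with elements in its 3′ UTR, fell, Fth1 and Ftl1, with elements in the 5′ UTR, rose, and Slc40a1, also with a 5′ element, was at 0.23 and was not called. Epas1, which is no member, is shown beside them because it is a known 5′ IRE gene whose element was found in the looser form.
Epas1 5′ UTR with 1 unpaired base, chr17:86753768-86753797, plus strand: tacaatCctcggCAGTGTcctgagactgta
Epas1, the hypoxia-inducible factor HIF2α, fell by 1.29 on the log2 scale (adjusted p = 1.52e-08 from limma). It was 1 of 4 tested genes on a list of other IRE-bearing transcripts, of which 2 were lower and 2 were not called (median −0.60). Those not called were Cdc14a at 0.19 and Cdc42bpa at 0.09 (adjusted p = 0.177 and 0.147 from limma). Of the 14 tested genes with an unbroken match in the 5′ UTR, 7 were higher, 3 were lower and 4 were not called, with a median fold change of 0.22. Of the 77 with one in the 3′ UTR, 32 were higher, 26 were lower and 19 were not called, with a median of 0.02. Both sets are near the 68.4% of all tested genes that were called. Epas1 is in neither set, since its match has the looser form. With that form also allowed, 31 genes had a match in the 5′ UTR. Of these, 12 were higher, 9 were lower and 10 were not called, with a median of 0.15. A match describes the letters only and is not a test of binding.

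Beyond these 9 genes, 37 of 49 other genes of iron handling were tested, of which 15 were higher, 13 were lower and 9 were not called (median 0.09). Over all tested genes 68.4% were called (38.4% higher, 30.0% lower, median 0.06), so the number of calls among these genes, and in the short lists below, does not set them apart. Of 11 tested genes of other uptake routes, 5 were higher, 3 were lower and 3 were not called (median 0.13). The STEAP metalloreductases, relatives of Steap3, went opposite ways. Steap1 had 44.2, 41.2 and 43.7 RPKM in the 4CBA libraries, against 4.77, 5.10 and 5.50 RPKM in the CTL libraries, 8.40-fold higher (log2 fold change 2.85, adjusted p = 1.5e-11 from limma). Steap4, which is known in adipocytes as an inflammation-responsive reductase, had 13.7, 11.7 and 9.81 RPKM in the 4CBA libraries, against 90.6, 89.6 and 89.7 RPKM in the CTL libraries, 7.65-fold lower (log2 fold change −2.84, adjusted p = 1.18e-09 from limma). Steap2, named after its values were seen to complete the family, was at 0.27 (adjusted p = 0.0110 from limma).

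**Figure D4:**
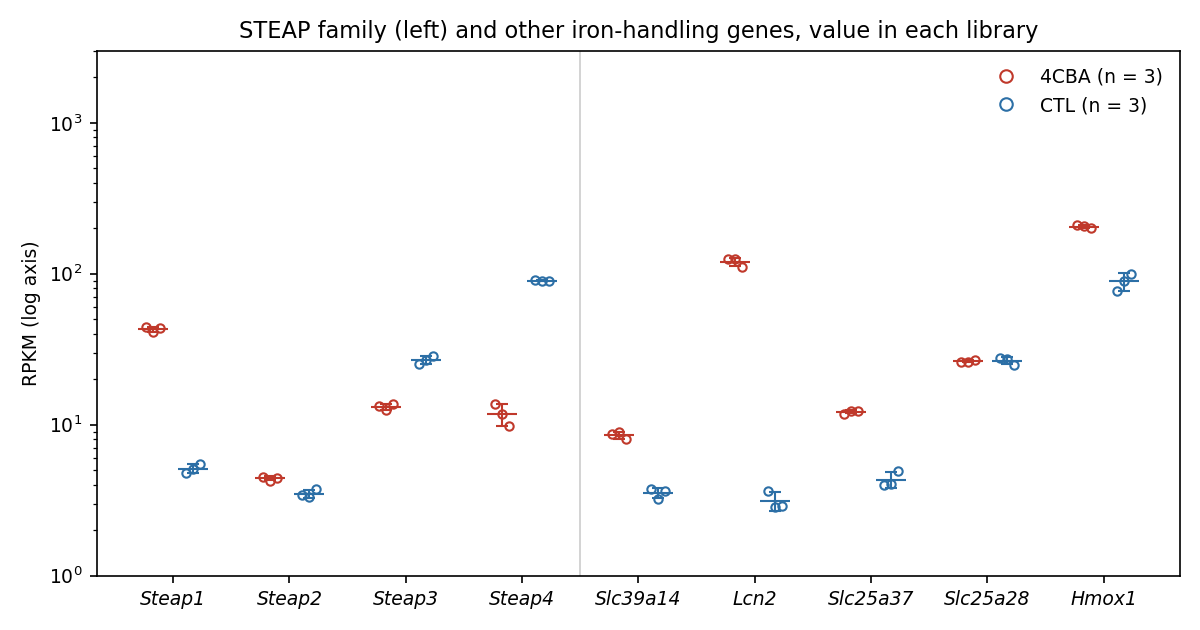
RPKM in each library on a log axis for the 4 STEAP genes (left) and 5 other iron-handling genes, with 4CBA (red, left) and CTL (blue, right), circles for libraries, long bars for means and error bars for the SD (n = 3 each). Steap1 is higher and Steap3 and Steap4 are lower in 4CBA, and Slc25a28 overlaps between groups.

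Lcn2, a secreted protein that binds iron-loaded siderophores, had the largest rise of the uptake list, at 124.5, 124 and 112 RPKM in the 4CBA libraries against 3.65, 2.86 and 2.87 RPKM in the CTL libraries (log2 fold change 4.88, adjusted p = 1.94e-12 from limma). Slc39a14, the zinc and iron carrier ZIP14 that takes up iron not bound to transferrin, averaged 8.53 ± 0.458 RPKM in 4CBA cells and 3.54 ± 0.273 RPKM in CTL cells (SD, n = 3 each) and rose by 1.07 on the log2 scale (adjusted p = 2.6e-07 from limma). Tfr2, a second transferrin receptor best known from liver and erythroid cells, averaged 0.327 ± 0.141 RPKM in 4CBA cells and 3.14 ± 0.214 RPKM in CTL cells (SD, n = 3 each; adjusted p = 8.13e-08 from limma). Trf, transferrin itself, had 0.037, 0 and 0 RPKM in the 4CBA libraries and 0.807, 1.05 and 1.00 RPKM in the CTL libraries (adjusted p = 6.74e-06 from limma). Mcoln1 and Snx3, of the same list, were named after their values were seen. Mcoln1, a lysosomal channel that passes iron, averaged 55.0 ± 1.44 RPKM in 4CBA cells and 27.9 ± 0.367 RPKM in CTL cells (SD, n = 3 each; log2 fold change 0.95, adjusted p = 1.19e-08 from limma). Snx3, which returns transferrin receptors from endosomes, was at 0.04 (adjusted p = 0.451 from limma).

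Of 4 tested genes of iron chaperones and mitochondrial iron import, 3 were higher and 1 was not called (median 0.20). Slc25a37, mitoferrin 1, which is best known for bringing iron into the mitochondria of erythroid cells, had 11.9, 12.4 and 12.3 RPKM in the 4CBA libraries, against 4.00, 4.05 and 4.95 RPKM in the CTL libraries (log2 fold change 1.31, adjusted p = 5.08e-08 from limma). Its relative Slc25a28, mitoferrin 2, averaged 26.4 ± 0.511 RPKM in 4CBA cells and 26.6 ± 1.48 RPKM in CTL cells (SD, n = 3 each), and the 95% interval of its fold change was −0.13 to 0.12. Pcbp1, a chaperone that hands iron to ferritin, was at 0.22 (adjusted p = 0.00145 from limma).

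Of 8 tested genes of heme handling, 2 were higher, 4 were lower and 2 were not called (median −0.22). Hmox1, the inducible heme oxygenase that frees iron from heme, had 209.5, 207 and 199.6 RPKM in the 4CBA libraries, against 77.0, 89.8 and 100.1 RPKM in the CTL libraries (log2 fold change 1.21, adjusted p = 2.29e-07 from limma). Slc48a1, a heme carrier of the lysosome, rose by 0.92 (adjusted p = 1.09e-08 from limma). Blvra, the biliverdin reductase that acts after heme oxygenase, fell by 0.64 (adjusted p = 1.23e-06 from limma), and the exporter Abcg2 fell by 0.55 (adjusted p = 0.000396 from limma).

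Of 5 tested genes of export partners and systemic control, 2 were higher, 2 were lower and 1 was not called (median 0.16). Cp, ceruloplasmin, the ferroxidase that works with ferroportin, averaged 11.6 ± 2.15 RPKM in 4CBA cells and 24.2 ± 1.64 RPKM in CTL cells (SD, n = 3 each) and fell by 1.02 on the log2 scale (adjusted p = 5.25e-05 from limma). Hfe, a partner of transferrin receptors, rose by 1.06 (adjusted p = 3.27e-07 from limma), and Neo1, a co-receptor of hemojuvelin, rose by 0.95 (adjusted p = 5.8e-08 from limma). Of 5 tested genes for the control of IRP2 and NCOA4 turnover, 3 were higher and 2 were lower (median 0.26), where 68.4% of all tested genes were called. Cul1, the scaffold of the ligase that marks IRP2, rose by 0.60 and Rbx1, its RING subunit, fell by 0.47 (adjusted p = 7.98e-07 and 2.81e-05 from limma). Fbxl5, the iron-sensing subunit of that ligase, was at 0.26, Herc2, a ligase that acts on NCOA4, was at 0.29, and Skp1a was at −0.24 (adjusted p = 0.00315, 0.00659 and 0.00252 from limma). After scaling each library to an equal median, Fbxl5 and Herc2 no longer passed, with adjusted p of 0.0627 and 0.0599.

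By root mean square difference of gene-centred log2(RPKM + 1) over the 6 libraries, the genes most like Slc11a2 were Dtymk (0.0265), Idh3b (0.0286) and Abcg1 (0.0331). Dtymk, thymidylate kinase, averaged 25.9 RPKM in 4CBA cells and 81.1 RPKM in CTL cells. Idh3b, a subunit of the mitochondrial isocitrate dehydrogenase, averaged 86.3 RPKM in 4CBA cells and 256.6 RPKM in CTL cells. The genes most like Ftl1 were Serinc3 (0.0185), Ldlrad3 (0.0291) and Srd5a3 (0.0294), and Serinc3 averaged 117 RPKM in 4CBA cells and 55.2 RPKM in CTL cells.

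Libraries correlated across genes at r of 0.992 to 0.993 within groups and 0.911 to 0.917 between groups, a comparison across genes, which are no independent replicates. The brown adipocyte markers moved with the treatment, and their part in the results above was not tested. Of 7 such markers 6 were lower without overlap and 1 was higher, with summed levels of 51.7 to 54.4 RPKM in 4CBA libraries and 248 to 275 RPKM in CTL libraries. Of 5 general adipocyte markers 4 were lower, with sums of 4711 to 5942 RPKM in 4CBA libraries and 9686 to 10152 RPKM in CTL libraries. Of 6 preadipocyte and fibroblast markers 4 were lower without overlap, with sums of 27.2 to 29.0 RPKM in 4CBA libraries and 68.1 to 78.0 RPKM in CTL libraries, and Dpp4 was listed at 0 in all. Macrophages and erythroid cells handle much iron, and most of their markers were near 0. Of 8 macrophage markers 7 stayed under 0.5 RPKM and Adgre1, Ptprc, C1qa and Itgam were listed at 0, with sums of 0.239 to 0.896 RPKM in 4CBA libraries and 0.632 to 0.812 RPKM in CTL libraries. Of 9 erythroid markers 7 were listed at 0, the globins among them, with sums of 0.816 to 1.03 RPKM in 4CBA libraries and 1.59 to 2.20 RPKM in CTL libraries. Epor, of that list, averaged 0.706 ± 0.218 RPKM in 4CBA cells and 1.56 ± 0.390 RPKM in CTL cells (SD, n = 3 each). It was lower without overlap (adjusted p = 0.00278 from limma). All 4 endothelial markers stayed under 0.5 RPKM. Of 4 muscle markers 3 did, and Acta1 was higher without overlap, with list sums of 4.00 to 5.36 RPKM in 4CBA libraries and 0.215 to 0.331 RPKM in CTL libraries.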

How the data were processed

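RNA of immortalized brown adipocytes was analysed in 6 libraries, grouped by sample title. The authors mapped reads to mm10 with STAR, counted exon reads of 1 RefSeq isoform per gene with HOMER and deposited RPKM values, in a table whose header names 24 libraries. The authors also deposited log2 values per library, by a transform that is not stated. The p-values and fold changes of the authors' own comparison with DESeq2 were not used. Versions of these tools are not stated in the sources used.

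Genes reaching 0.5 RPKM in 3 or more libraries were fitted with limma 3.58.1 (R 4.3.3; trend, robust) on log2(RPKM + 1) in a two-group design. P-values are two-sided and adjusted by the Benjamini-Hochberg method over 12659 genes, with a threshold of 0.05. The study's test was for counts, and the values here are RPKM. The procedure was tested on simulated data. Ratios were compared by exact permutation. Depth was estimated from the nonzero values of transcripts listed at 0 in at least 3 libraries. Each value was assumed to stand for 1 read, and the most frequent depth implied by value and transcript length was taken. At the median depth, 1 read in a 2000-base transcript was worth 0.0448 RPKM. The estimated read numbers rest on that assumption.

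All 9 genes are named whatever their values. Of each other list, the 2 genes with the largest changes in each direction are named if called and if the higher group averaged 1 RPKM or more, plus Trf, Slc39a14, Hmox1, Fbxl5, Slc25a37, Slc25a28 and Pcbp1. Some genes that the rule or the lists take in are not reported here. Members, lists and rules were chosen with earlier results of these data known. Alternatives were a pseudocount of 0.1, no filter, a filter at 5 RPKM, a replicate block, scaling to an equal median, use of the authors' log2 values and each library left out.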

Additional observations from a re-analysis of the deposited data

How the results depend on the processing

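Of the 9 iron genes, Tfrc, Slc11a2, Steap3, Ftl1 and Aco1 kept direction and call under all 12 alternatives. Their log2 fold changes ranged from −1.43 to −1.30, −1.94 to −1.57, −1.08 to −0.94, 0.96 to 1.12 and −1.18 to −1.04, in that order of genes. No alternative dealt with reads that Ftl1 may share with its copies. With libraries scaled to the same median, Fth1 was at 0.10 (adjusted p = 0.0571 from limma), leaving 1 of the 9 genes called higher. Under that scaling Ncoa4 was at −0.03 and Ireb2 at −0.072, Herc2 was at 0.18 and Fbxl5 at 0.15 without a call, and 3 of the genes for IRP2 and NCOA4 turnover were called. The share of calls that were higher was 45.0% (3907 higher, 4767 lower) under that scaling, 50.5% with the authors' log2 values and 56.1% in the values reported. Ireb2 was at −0.029 with the authors' log2 values. With a filter at 5 RPKM, 5 genes of other uptake routes were called and Ncoa4 and Slc40a1 were not tested, since fewer genes pass that filter.

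Leaving out 1 library each, Slc40a1 ranged from 0.10 to 0.39, the highest without 4CBA replicate 1, where it was called. Ncoa4 ranged from −0.0017 to 0.18, negative without 4CBA replicate 2. Slc25a28 ranged from −0.051 (without CTL replicate 3) to 0.0232 and turned positive without 4CBA replicate 1 (0.000672), 4CBA replicate 2 (0.00224), CTL replicate 1 (0.0232) and CTL replicate 2 (0.00873). With the replicate number as a block, 8499 genes were called, against 8664 without it, and 6 of the 9 iron genes in both. Libraries of the same number deviated with correlations of −0.067, −0.033 and −0.027, so the number was not taken as a pairing. In a sign-flip test of the paired ratios the smallest exact p is 0.25, which all 3 ratios gave. Causes of these changes were not tested. The low read numbers of Ncoa4 and Slc40a1 limit what could be detected for storage turnover and export.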
